A study of Mus musculus with 9 samples.

Results

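Prph2, Rom1, Prom1, Cdhr1, Rp1, Fscn2, Rd3, Prcd and Tulp1 build, supply or support the disc stack of the photoreceptor outer segment, and their RNA was followed across 3 groups of sorted mouse retinal cells. The 9 genes, and the gene lists used below, were chosen by name with earlier results of these data known. Their counts of calls are therefore descriptions and not independent evidence. All probe sets annotated to one of these symbols alone were taken, which gave 11 probe sets among 34945 with a single symbol, and 9 genes among 18193. Rp1 and Rd3 had 2 probe sets each, and the one with the higher mean over the 9 arrays then stands for the gene.

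RNA was measured on 9 Affymetrix arrays, 3 for each group, all on the C57BL/6J-129/Ola background. Pups of the rhoGFP genotype (also named rhoEGFP, a reporter line for rods) at postnatal day 4 gave cells with and cells without GFP, called rhoGFP-positive and rhoGFP-negative here. Pups of the nestinGFP genotype (pNestin-GFP, a reporter for the progenitor filament nestin) at postnatal day 0 gave the cells with GFP, called nestinGFP-positive. Replicates were labelled as biological, and each pooled the retinae of 6 to 8 mice. The fractions are defined by reporter fluorescence alone. The nestinGFP-positive group differs from both others in line and in age, so that cell type, line and age cannot be told apart in a comparison with it. In bulk samples, fewer cells of a type and less RNA per cell cannot be told apart either.

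The outer segment is a modified cilium packed with flat membrane discs that carry the phototransduction proteins. New discs arise at its base as outgrowths of the plasma membrane, tetraspanins shape their rims, and a microtubule axoneme runs along the stack. Photoreceptors of newborn mice have not yet built an outer segment, and defects in most of these genes are known causes of inherited retinal degeneration.

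Values are log2 signals from RMA as the authors deposited them, so that a difference of 1 is a 2-fold difference. Signals depend on the probes and are compared here between groups, not between genes. Array medians were 6.08 to 6.17. The 18S ribosomal RNA controls averaged 12.1 to 13.6 on the 3 replicate 1 arrays and 9.65 to 10.4 on the other 6. The actin 3′ signal exceeded the 5′ signal, a measure of RNA quality, by 0.85, 0.97 and 0.90 (log2) on the rhoGFP-positive arrays, by 0.64, 0.68 and 0.64 on the rhoGFP-negative arrays and by 0.40, 0.61 and 0.99 on the nestinGFP-positive arrays. The rhoGFP fractions did not overlap in this measure, and its part in the differences between them was not tested. Of 11 rod markers, 11 were higher in the rhoGFP-positive than in the rhoGFP-negative fraction by the test described below, with array means of 11.2 to 11.7 against 7.93 to 8.44. Of 15 progenitor markers, 12 were lower, with array means of 8.56 to 9.19 against 10.3 to 11.1, and the nestinGFP-positive arrays averaged 11.2 to 11.3. Between the rhoGFP fractions 6 of 7 amacrine and 5 of 8 Müller glia markers were also lower in the rhoGFP-positive cells, and of 10 cone markers 1, Cngb3, was higher. Amacrine and ganglion markers averaged 9.86 to 10.3 and 7.41 to 8.29 on the nestinGFP-positive arrays. On the rhoGFP-negative arrays they averaged 8.74 to 9.83 and 6.91 to 7.28. Bipolar and cone markers ran the other way, at 7.79 to 7.99 and 7.20 to 7.46 against 8.15 to 8.85 and 7.55 to 7.85. Müller glia markers and the nestin gene Nes overlapped between these groups. Progenitor markers alone therefore do not describe the nestinGFP-positive group. The part of these cell types in the results that follow was not tested.

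Stretches upstream of 4 of the genes are shown because 3 of them hold the core letters recognised by Crx and related homeodomain factors of photoreceptors, and that of Rom1 does not. They are RefSeq sequences of the 250 bases before the annotated start on build GRCm38.p6, written 5′ to 3′ along the gene, with the letters TAATC or, for the other strand, GATTA in capitals. The window of Prph2, the disc rim tetraspanin, lies at chr17:46910228-46910477 (plus strand). That of Prcd, a small disc membrane protein, lies at chr11:116656858-116657107 (plus strand). That of Prom1, a protein of membrane protrusions, lies at chr5:44094769-44095018 (minus strand), and that of Rom1, the partner of Prph2, at chr19:8929357-8929606 (minus strand).
Prph2: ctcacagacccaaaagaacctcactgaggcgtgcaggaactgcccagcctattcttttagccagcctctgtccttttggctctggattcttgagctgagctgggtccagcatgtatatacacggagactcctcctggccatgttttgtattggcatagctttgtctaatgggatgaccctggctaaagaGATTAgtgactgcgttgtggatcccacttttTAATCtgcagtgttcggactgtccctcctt
Prcd: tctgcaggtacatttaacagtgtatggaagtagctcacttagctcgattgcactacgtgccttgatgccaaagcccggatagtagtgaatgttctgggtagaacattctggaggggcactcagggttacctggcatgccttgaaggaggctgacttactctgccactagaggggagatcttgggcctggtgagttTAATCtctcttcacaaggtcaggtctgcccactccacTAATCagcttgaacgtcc
Prom1: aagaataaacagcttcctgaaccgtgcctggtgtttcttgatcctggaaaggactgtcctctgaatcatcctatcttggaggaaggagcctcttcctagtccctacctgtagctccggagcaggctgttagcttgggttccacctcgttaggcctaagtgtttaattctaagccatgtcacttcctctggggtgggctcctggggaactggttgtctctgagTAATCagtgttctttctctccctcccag
Rom1: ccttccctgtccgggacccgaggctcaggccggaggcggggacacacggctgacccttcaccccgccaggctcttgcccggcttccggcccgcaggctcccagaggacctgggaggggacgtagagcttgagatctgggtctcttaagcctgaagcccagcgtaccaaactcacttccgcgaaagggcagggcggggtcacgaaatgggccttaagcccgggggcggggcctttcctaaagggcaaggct
The matches began 61 and 30 bases before the start of Prph2, 55 and 18 bases before that of Prcd and 28 bases before this start of Prom1. The table held 10 windows for 8 of the 9 genes, with 2 each for Prom1 and Rd3 and none for Rp1. The other Prom1 window, at chr5:44101737-44101986 (minus strand), held no match. TAATC or GATTA was in 3 of these 10 windows and in 19.8% of all 32851 windows of this length. The longer TAATCC or GGATTA, which contains the shorter motif, was in 0 of 10 and in 6.25% of all. TGCTGA or TCAGCA, the core letters of the site of the rod factor Nrl, was in 0 of 10 and in 16.1% of all. A match describes letters and not a binding site, and the lack of a match says only that the letters are not in that window.

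The comparison of the 2 fractions of the rhoGFP line, of the same age, asks how disc gene RNA differs between reporter-positive cells and the remaining cells of the retina. Each of the 9 genes was higher in the rhoGFP-positive fraction, from 3.10-fold for Prom1 to 11.4-fold for Rp1. All 9 were called by limma, with a Benjamini-Hochberg adjusted p below 0.05 over 18193 genes and a difference of at least 2-fold. Among all genes 10.9% were called, 3.61% higher and 7.32% lower. The arrays of the 2 fractions did not overlap for 9 of the 9 genes, which held for 38.2% of all genes in either direction and for 17.9% with the rhoGFP-positive arrays higher. The median log2 difference was 2.06 over the 9 genes and 0.01 over all genes.

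**Figure D1:**
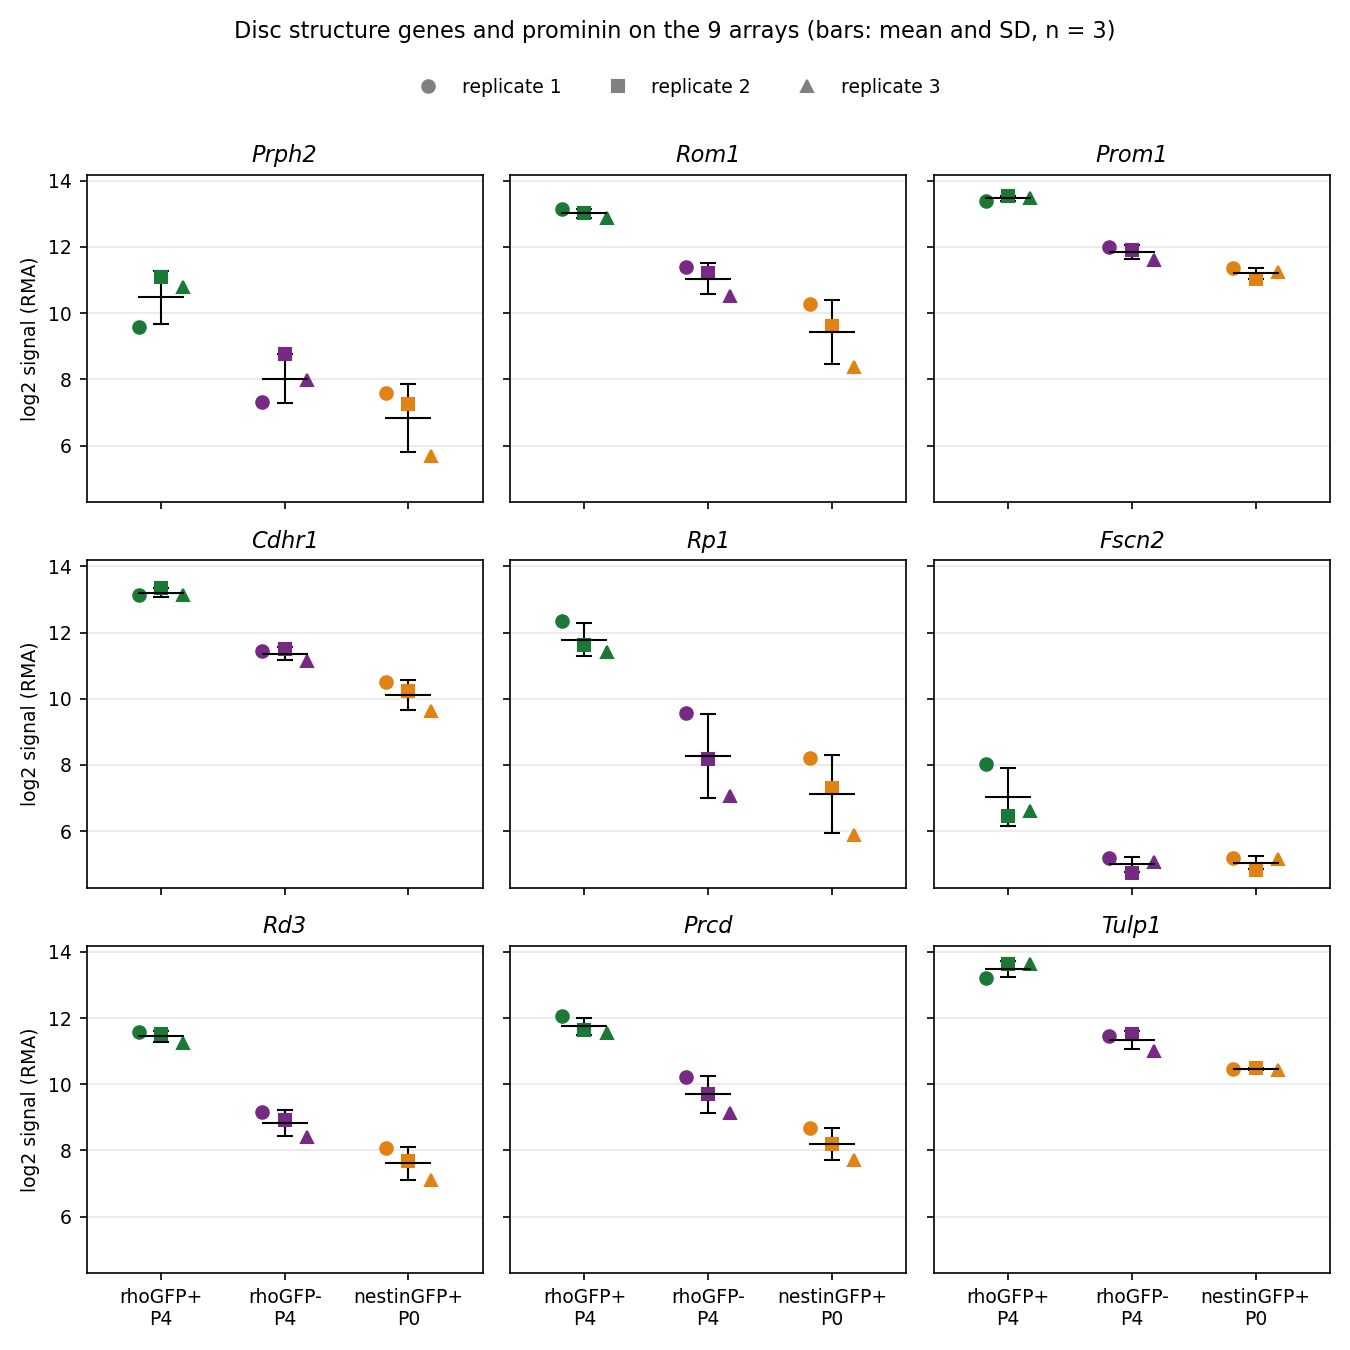
Log2 signal of each of the 9 genes (vertical axis) in the 3 sorted groups (horizontal axis), with 1 point per array, a symbol per replicate number, and black bars for the mean and SD of 3 arrays. The rhoGFP-positive arrays lie above the others in every panel, and the rhoGFP-negative and nestinGFP-positive arrays overlap for Prph2, Rp1 and Fscn2.

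Prph2 and Rom1 encode tetraspanins that form complexes with each other and hold the curved disc rim. Prph2 stood at 9.58, 11.08 and 10.78 on rhoGFP-positive replicates 1, 2 and 3, at 7.30, 8.78 and 7.98 on the rhoGFP-negative arrays and at 7.59, 7.27 and 5.67 on the nestinGFP-positive arrays. Replicate 1 was the lowest array of both rhoGFP fractions, which did not overlap, while rhoGFP-negative replicate 1 fell within the nestinGFP-positive range. The rhoGFP fractions differed by 2.46 ± 0.56 (log2, SE, limma adjusted p = 0.0101). Taken within replicate numbers 1, 2 and 3, the differences were 2.27, 2.31 and 2.80, closer to each other than the arrays of either fraction.

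Rom1 stood at 13.14, 13.03 and 12.87 in the rhoGFP-positive fraction, at 11.40, 11.20 and 10.51 in the rhoGFP-negative fraction and at 10.29, 9.60 and 8.38 in the nestinGFP-positive group. The 3 groups did not overlap, and the SD was 0.14 (n = 3) in the rhoGFP-positive and 0.96 (n = 3) in the nestinGFP-positive arrays. The rhoGFP fractions differed by 1.98 ± 0.41 (log2, SE, limma adjusted p = 0.00605), or 3.94-fold.

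Prom1 and Cdhr1 encode membrane proteins of the growing discs at the base of the outer segment. Prominin 1 sits on membrane protrusions and is also found on stem and progenitor cells of several tissues, whereas Cdhr1 is a cadherin-related protein of photoreceptors. Prom1 stood at 13.39, 13.55 and 13.46 on the rhoGFP-positive arrays, at 12.01, 11.89 and 11.60 on the rhoGFP-negative arrays and at 11.35, 11.02 and 11.25 on the nestinGFP-positive arrays. The groups did not overlap, and the progenitor reporter group was the lowest of the 3. The difference between the rhoGFP fractions, 1.63 ± 0.13 (log2, SE, limma adjusted p = 2.40e-05), was the smallest of the 9 genes and had the smallest error.

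Cdhr1 stood at 13.14, 13.35 and 13.12 in the rhoGFP-positive fraction, at 11.44, 11.50 and 11.13 in the rhoGFP-negative fraction and at 10.51, 10.23 and 9.62 in the nestinGFP-positive group. These arrays formed 3 separate levels with the rhoGFP-negative fraction in the middle. The rhoGFP fractions differed by 1.85 ± 0.21 (log2, SE, limma adjusted p = 0.000158), or 3.60-fold.

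Rp1 and Fscn2 encode cytoskeletal proteins. Rp1 is a doublecortin-domain protein on the microtubules of the outer segment axoneme, and Fscn2 is the photoreceptor form of the actin-bundling protein fascin. Rp1 stood at 12.34, 11.61 and 11.41 in the rhoGFP-positive fraction, at 9.58, 8.19 and 7.05 in the rhoGFP-negative fraction and at 8.21, 7.31 and 5.87 in the nestinGFP-positive group. Replicate 1 was the highest and replicate 3 the lowest array of every group, and the SDs of 1.27 and 1.18 (n = 3) in the rhoGFP-negative and nestinGFP-positive groups were the widest of the 9 genes there. The difference between the rhoGFP fractions, 3.51 ± 0.68 (log2, SE, limma adjusted p = 0.00389), was the largest of the 9 genes and ranked 21 from the top among 18193 genes.

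The other Rp1 probe set gave a much smaller difference. It stood at 5.59, 5.48 and 5.60 on the rhoGFP-positive arrays, at 5.02, 4.96 and 4.67 on the rhoGFP-negative arrays and at 4.90, 4.98 and 5.06 on the nestinGFP-positive arrays. The rhoGFP-positive arrays were again apart from the rest. The difference between the rhoGFP fractions was 0.67 ± 0.12 (log2, SE, limma adjusted p = 0.00343 over 34945 probe sets), below the 2-fold minimum, and with the mean of both probe sets it was 2.09.

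Fscn2 stood at 8.04, 6.46 and 6.61 in the rhoGFP-positive fraction, at 5.18, 4.74 and 5.05 in the rhoGFP-negative fraction and at 5.18, 4.81 and 5.15 in the nestinGFP-positive group. The rhoGFP-positive arrays stood above the median signal of their arrays, replicate 1 well above the other 2, and all 6 remaining arrays stood below theirs. The rhoGFP fractions differed by 2.05 ± 0.35 (log2, SE, limma adjusted p = 0.00214). The deposited table has no detection calls, so that it is not known whether the signals near 5 are above background, and the fold may be understated.

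Rd3, Prcd and Tulp1 act in the supply and make-up of the disc membrane. Rd3 binds the retinal guanylate cyclase and is needed for its transport, Prcd is a small protein of the disc membrane, and Tulp1 is a tubby-like protein needed for moving proteins to the outer segment. Rd3 stood at 11.58, 11.52 and 11.26 in the rhoGFP-positive fraction, at 9.17, 8.92 and 8.39 in the rhoGFP-negative fraction and at 8.07, 7.68 and 7.09 in the nestinGFP-positive group. The 3 groups were apart, and the difference between the rhoGFP fractions, 2.63 ± 0.26 (log2, SE, limma adjusted p = 6.52e-05), was exceeded among the 9 genes by that of Rp1 alone.

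The other Rd3 probe set was dimmer, at 6.06, 5.50 and 5.54 in the rhoGFP-positive fraction, at 4.61, 4.48 and 4.46 in the rhoGFP-negative fraction and at 4.22, 4.53 and 3.72 in the nestinGFP-positive group. The rhoGFP-positive arrays were above the rest here too, and the rhoGFP-negative and nestinGFP-positive arrays overlapped. Between the rhoGFP fractions it differed by 1.18 ± 0.22 (log2, SE, limma adjusted p = 0.00428 over 34945 probe sets), and the mean of both probe sets differed by 1.90.

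Prcd stood at 12.05, 11.65 and 11.55 in the rhoGFP-positive fraction, at 10.23, 9.72 and 9.13 in the rhoGFP-negative fraction and at 8.67, 8.20 and 7.70 in the nestinGFP-positive group. The groups were separate, with replicate 1 highest and replicate 3 lowest in each. The rhoGFP fractions differed by 2.06 ± 0.30 (log2, SE, limma adjusted p = 0.000789), or 4.16-fold.

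Tulp1 stood at 13.20, 13.65 and 13.62 in the rhoGFP-positive fraction, at 11.46, 11.50 and 11.02 in the rhoGFP-negative fraction and at 10.47, 10.50 and 10.44 in the nestinGFP-positive group. The nestinGFP-positive arrays lay within an SD of 0.03 (n = 3), the tightest of any group among the 9 genes. The rhoGFP fractions differed by 2.16 ± 0.16 (log2, SE, limma adjusted p = 1.47e-05), or 4.48-fold.

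The same rhoGFP-positive arrays were then set against the nestinGFP-positive arrays, which asks how the reporter-positive cells of day 4 differ from the progenitor reporter cells of day 0. All 9 genes were called higher again, by 3.97-fold for Fscn2 to 25.2-fold for Rp1, and the arrays did not overlap for 9 of the 9. Among all genes 15.6% were called, 5.06% higher and 10.5% lower, and the arrays did not overlap for 47.8%, or for 24.4% with the rhoGFP-positive arrays higher. The median log2 difference was 3.56 over the 9 genes and 0.06 over all genes. This comparison and the first share the rhoGFP-positive arrays, so that they are not independent.

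Of the rim proteins, Prph2 differed from the nestinGFP-positive group by 3.64 ± 0.56 (log2, SE, limma adjusted p = 0.000694) and Rom1 by 3.59 ± 0.41 (adjusted p = 0.000104). Prom1 differed by 2.26 ± 0.13 and Cdhr1 by 3.08 ± 0.21, with limma adjusted p values of 2.51e-06 and 5.06e-06. Rp1 differed by 4.65 ± 0.68 (limma adjusted p = 0.000458) and ranked 8 from the top among 18193 genes, and Fscn2 differed by 1.99 ± 0.35 (adjusted p = 0.00164). Rd3, at 3.84 ± 0.26, ranked 24, and Prcd and Tulp1 differed by 3.56 ± 0.30 and 3.02 ± 0.16, with limma adjusted p values from 1.57e-06 to 1.74e-05 for these 3 genes. For 8 of the 9 genes the difference was larger than that between the rhoGFP fractions, and for Fscn2 it was 1.99 against 2.05. The dimmer probe sets of Rp1 and Rd3 differed by 0.58 and 1.54.

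**Figure D2:**
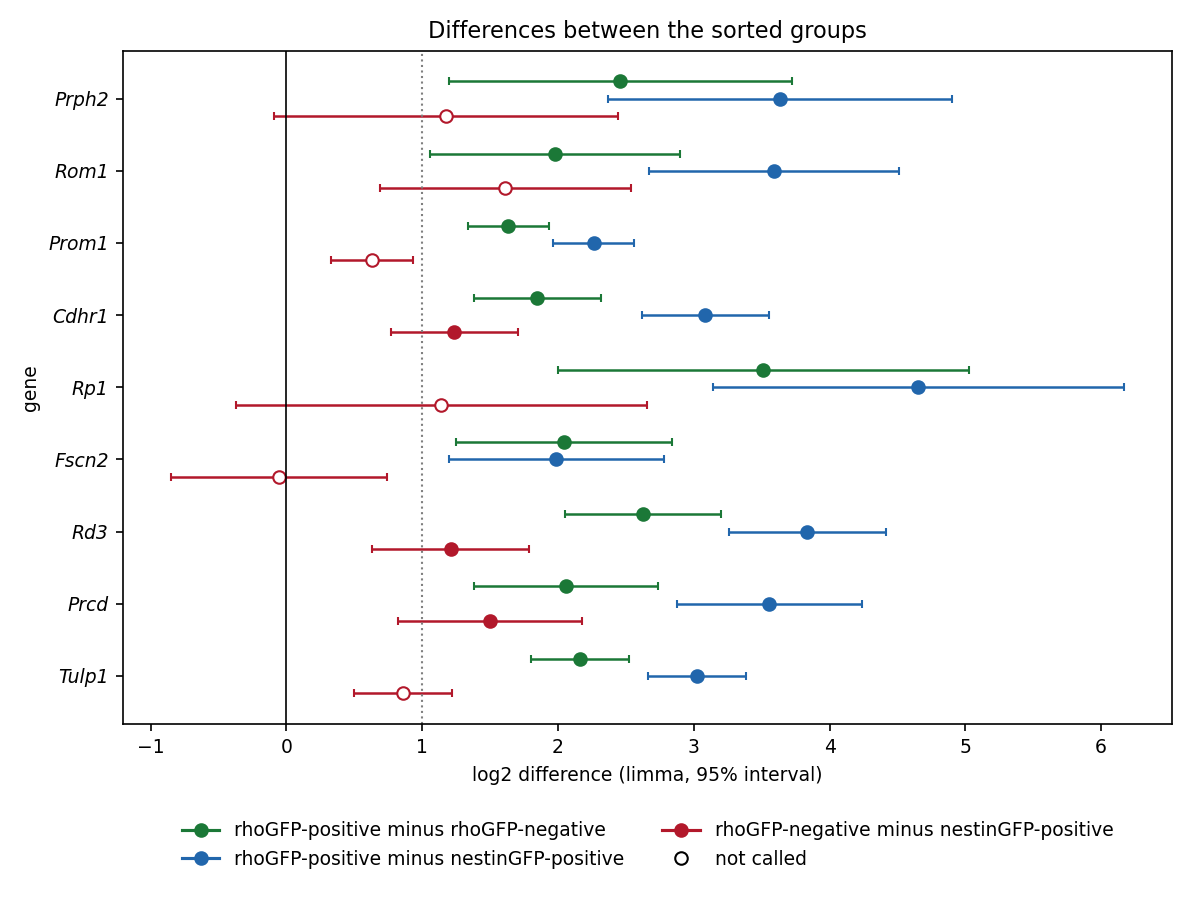
Log2 difference of each of the 9 genes (rows) in the 3 comparisons of sorted groups, with limma's 95% interval; filled points were called and open points were not, and the dotted line marks the 2-fold minimum. All 18 points of the comparisons with the rhoGFP-positive fraction are filled, and 3 of the 9 points between the nestinGFP-positive and rhoGFP-negative groups are.

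The third comparison set the rhoGFP-negative fraction of day 4 against the nestinGFP-positive fraction of day 0. Cdhr1, Prcd and Rd3, 3 of the 9 genes, were called higher in the rhoGFP-negative fraction, where 0.989% of all genes were called, 0.385% higher and 0.605% lower. The arrays did not overlap for 6 of the 9 genes, against 20.6% of all genes in either direction and 11.8% with the rhoGFP-negative arrays higher. The median log2 difference was 1.18 over the 9 genes and 0.03 over all genes. By construction, this difference and the first add up to the second for every gene.

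Prcd differed by 1.50 ± 0.30 (log2, SE, limma adjusted p = 0.0416), Cdhr1 by 1.24 ± 0.21 (adjusted p = 0.0245) and Rd3 by 1.21 ± 0.26 (adjusted p = 0.0483). These calls stood close to the threshold: none of the 3 was called without rhoGFP-negative replicate 1 or 2 or without nestinGFP-positive replicate 2 or 3. With the mean of both probe sets, Rd3 differed by 0.79 (limma adjusted p = 0.0899). Rom1, with the largest value of the 9, 1.61 ± 0.41, was not called (limma adjusted p = 0.0774) and was called with the replicate number as a block (adjusted p = 0.00373). Rp1, at 1.14 with a 95% interval of -0.37 to 2.66, was not called either (limma adjusted p = 0.429) and was called with the block (adjusted p = 0.0257). The block moved the count of the 9 genes from 3 to 5 and that of all genes from 180 to 453. No label ties the replicate numbers of these 2 groups, which differ in line and age.

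Prom1 and Tulp1 were higher in the rhoGFP-negative fraction by 0.63 ± 0.13 and 0.86 ± 0.16, with limma adjusted p values of 0.0483 and 0.0319, but did not reach the 2-fold minimum. Prph2 differed by 1.18 with a 95% interval of -0.09 to 2.44 (limma adjusted p = 0.315), and within replicate numbers 1, 2 and 3 by -0.29, 1.51 and 2.31. Fscn2 was at the same level within its error, with a difference of -0.06 and a 95% interval of -0.85 to 0.74. Rod markers other than the disc genes gave 1 of 11 called in this comparison, the transcription factor Nrl, with array means of 7.93 to 8.44 in the rhoGFP-negative and 7.12 to 8.08 in the nestinGFP-positive group. Progenitor markers gave 0 of 15 called by limma, with 10 at an unadjusted p below 0.05, against 3285 of all 18193 genes. The median log2 difference of these 15 markers was -0.81.

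The order of the 3 groups was rhoGFP-positive, rhoGFP-negative, nestinGFP-positive for the means of 8 of the 9 genes. For Prph2 and Rp1 the lower 2 groups overlapped, and for Fscn2 they overlapped with the order of their means turned. As a share of the whole difference between the rhoGFP-positive and nestinGFP-positive groups, the step from nestinGFP-positive to rhoGFP-negative was 44.9% for Rom1, 42.2% for Prcd, 40.1% for Cdhr1, 31.5% for Rd3, 28.4% for Tulp1 and 27.8% for Prom1. It was 52.3% for Rom1 and 50.1% for Prcd without rhoGFP-negative replicate 3, and 50.8% for Rom1 without nestinGFP-positive replicate 1. The lowest shares with single arrays left out were 35.6% for Rom1 and 34.6% for Prcd. The shares of Prph2 and Rp1 rested on single arrays. That of Prph2 was 32.3%, and it was 19.3% without nestinGFP-positive replicate 3 and 42.2% without rhoGFP-negative replicate 1. That of Rp1 was 24.5%, and it was 10.5% without rhoGFP-negative replicate 1, 12.7% without nestinGFP-positive replicate 3 and 37.6% without rhoGFP-negative replicate 3. No order of the genes by these shares was tested.

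The spread among replicates was shared by several genes. In the nestinGFP-positive group replicate 1 was the highest array for 8 of the 9 genes and replicate 3 the lowest for 7. How often this held among all genes was not counted. On nestinGFP-positive replicates 1, 2 and 3 the photoreceptor transcription factors described below averaged 11.1, 10.7 and 10.3. Rod markers averaged 8.08, 7.78 and 7.12 there, and progenitor markers 11.26, 11.16 and 11.27. In the rhoGFP-negative fraction replicate 1 was the highest for 6 and replicate 3 the lowest for 7. In the rhoGFP-positive fraction replicate 1 was the highest array for 5 genes and the lowest for 3, Prph2, Prom1 and Tulp1, and replicate 3 was the lowest for 5. The replicate 1 arrays are also those with the high 18S signal, and in the nestinGFP-positive group the actin 3′ minus 5′ difference was 0.40, 0.61 and 0.99 on replicates 1, 2 and 3. The part of either measure in these deviations was not tested. Without the 3 replicate 1 arrays, 9, 9 and 2 of the 9 genes were called in the 3 comparisons, in the order given above, and the call lost was that of Rd3 in the third (limma adjusted p = 0.0637). That fit called 2059, 2893 and 162 of all genes in the same order.

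**Figure D3:**
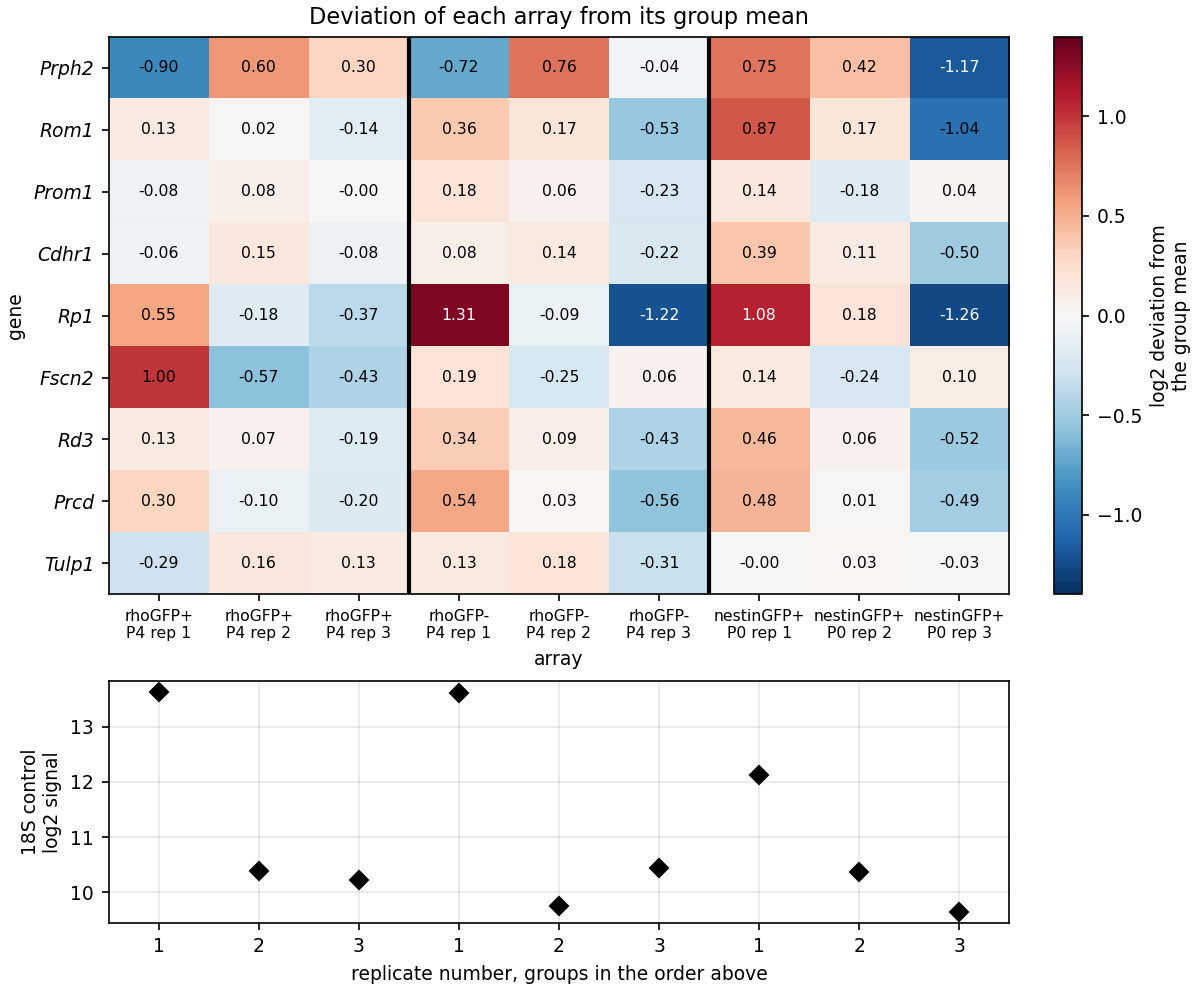
Deviation of each array (columns) from the mean of its group for the 9 genes (rows), in log2 units written in each cell, with the mean log2 signal of the 18S control probe sets on the same arrays below. Rp1 ranges from 1.31 above to 1.22 below the mean of the rhoGFP-negative fraction, and the replicate 1 arrays have the highest 18S signal of each group.

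The closest relatives of these genes in the genome did not share one direction. The 15 measured relatives were of the prominin, cadherin-related, doublecortin-domain, fascin and tubby-like families. Of these, 3 were called higher and 4 lower in the rhoGFP-positive than in the rhoGFP-negative fraction. Among all genes 3.61% were called higher and 7.32% lower. The median log2 difference of the relatives, -0.05, was the value of Cdhr2, whose mean signal of 4.37 was below the array medians. Rp1l1, a relative of Rp1 that is also found at the photoreceptor axoneme, stood at 11.25, 10.81 and 10.76 in the rhoGFP-positive fraction, at 7.45, 6.92 and 6.66 in the rhoGFP-negative fraction and at 6.91, 7.00 and 6.14 in the nestinGFP-positive group. It was higher in the rhoGFP-positive fraction by 3.93 ± 0.27 over the rhoGFP-negative fraction (log2, SE, limma adjusted p = 9.31e-06) and by 4.25 over the nestinGFP-positive group. Its rhoGFP-negative and nestinGFP-positive arrays overlapped, as those of Rp1 did.

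Tub, the founding member of the family of Tulp1, was higher in the rhoGFP-positive fraction by 3.32 ± 0.28 (log2, SE, limma adjusted p = 2.64e-05), and its other probe set by 0.74 without passing the test. Tulp2 and Tulp3 differed by 0.41 and -0.63 and were not called. The mean signal of Tulp2 was 3.31, and whether it is above background is not known. Dcdc2a, a doublecortin-domain gene, was higher by 1.73, and with the mean of its 2 probe sets by 0.93, below the minimum. The neuronal doublecortin genes Dcx, Dclk1 and Dclk2 were lower by this test, at -1.23, -2.06 and -1.24. With the mean of all probe sets of each gene Dcx and Dclk2 were at -0.49 and -0.42, below the 2-fold minimum, and Dclk1 was at -1.02. Dcx also lost its call when rhoGFP-positive replicate 1 or 2 or rhoGFP-negative replicate 2 or 3 was left out, and its lowest size then was -0.90.

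The fascins ran in opposite directions. Fscn1, the widely expressed fascin, stood at 11.52, 10.97 and 11.22 in the rhoGFP-positive fraction, at 12.71, 12.49 and 12.35 in the rhoGFP-negative fraction and at 12.67, 12.35 and 12.25 in the nestinGFP-positive group. The rhoGFP-positive arrays were the lowest, where those of Fscn2 were the highest, and the other 2 groups overlapped for both genes. Fscn1 differed between the rhoGFP fractions by -1.28 ± 0.17 (log2, SE, limma adjusted p = 0.000415). Fscn3 and Prom2 differed by -0.06 and 0.08, and Cdhr2, Cdhr3, Cdhr4 and Cdhr5 by -0.05, -0.06, 0.19 and 0.18. None of these 6 was called. Their mean signals over the arrays, from 4.37 for Cdhr2 to 5.64 for Cdhr5, were below the array medians. Whether they are above background is not known, so that the lack of a difference may be a lack of signal.

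**Figure D4:**
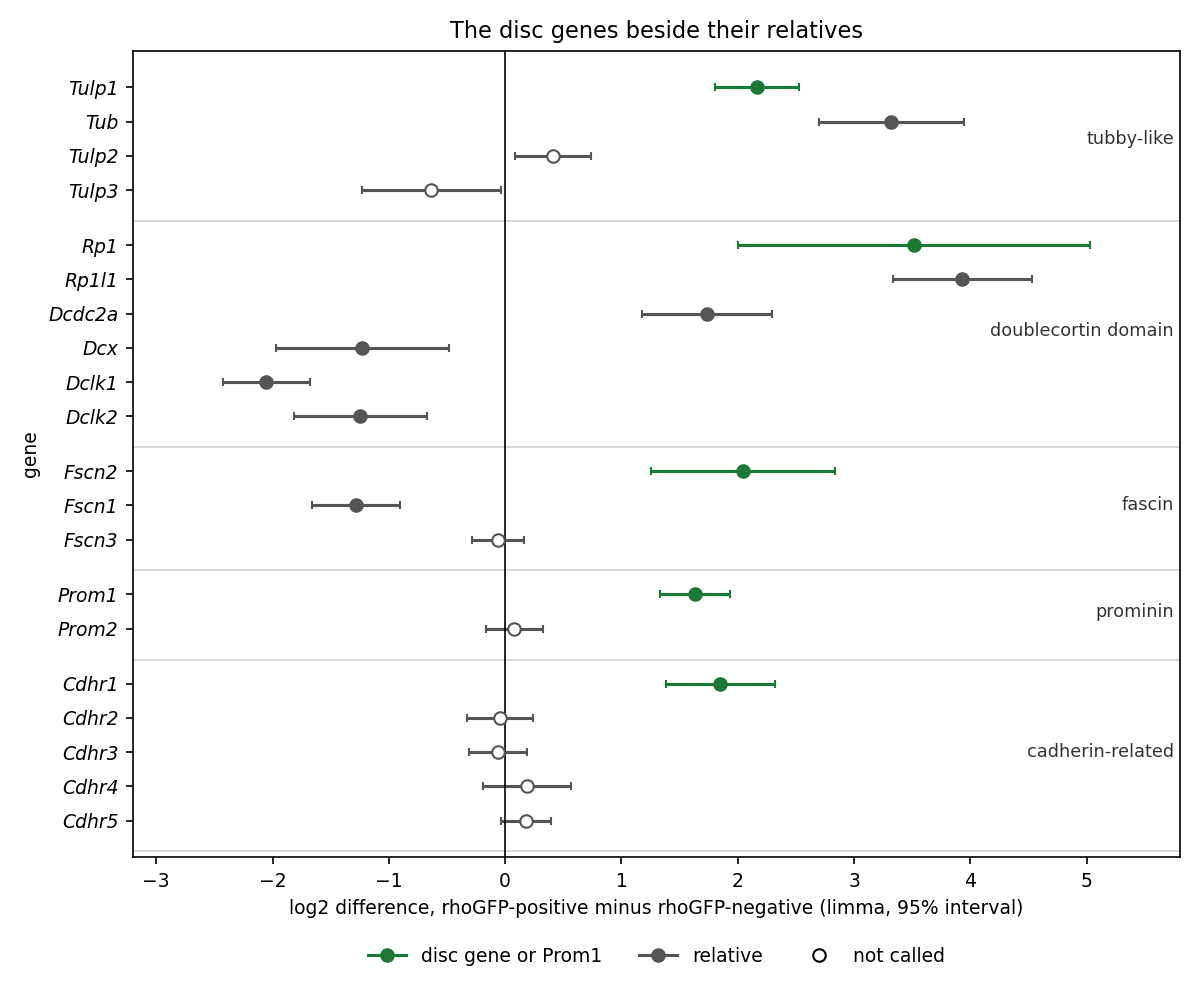
Log2 difference between the rhoGFP-positive and rhoGFP-negative fractions (horizontal axis, with limma's 95% interval) for 5 disc genes or Prom1 (green) and their measured relatives (grey), by family; open points were not called. Rp1l1 at 3.93 and Tub at 3.32 lie on the side of Rp1 and Tulp1, and Fscn1 at -1.28 and Dclk1 at -2.06 lie on the other side of 0.

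Against the nestinGFP-positive group, 3 relatives were called higher and 5 lower, the fifth being Tulp3 at -1.19. With the mean of all probe sets Tulp3 was at -0.42, Dclk2 at -0.51, Fscn1 at -0.997 and Dcdc2a at 0.72, below the 2-fold minimum. The call of Tulp3 was also lost without rhoGFP-positive replicate 1 or nestinGFP-positive replicate 3. Between the nestinGFP-positive and rhoGFP-negative groups 0 were called higher and 2 lower, Dcx at -1.80 and Dclk1 just past the minimum. Both calls were lost without nestinGFP-positive replicate 2 or 3 and with the mean of all probe sets, and that of Dclk1 also without rhoGFP-negative replicate 1 or 2, without the replicate 1 arrays and under each other normalization. Other tetraspanins, the wider family of Prph2 and Rom1, had 2 of 27 called higher and 5 lower between the rhoGFP fractions, with a median of -0.05. Tspan17 and Cd37 were higher by 1.13 and 1.09, and Cd9 and Tspan6 had the largest differences the other way, -2.21 and -1.73. Against the nestinGFP-positive group 2 were called higher and 6 lower, and the calls of Cd37, Tspan18 and Tspan2 among these were lost with the mean of all probe sets. Between the remaining 2 groups limma called 0 of 27, with 8 at an unadjusted p below 0.05, against 3285 of all 18193 genes.

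Genes that work beside the disc proteins were described by lists named for their roles. Of 7 disc membrane and cyclase partners, 4 were called higher and 0 lower between the rhoGFP fractions, with a median of 2.03. Cnga1 and Cngb1, the subunits of the rod cyclic nucleotide-gated channel, were higher by 4.93 and 3.81. The exchanger gene Slc24a1 was higher by 2.03 and the guanylate cyclase gene Gucy2e, whose product Rd3 binds, by 2.57. The Slc24a1 signals were 4.25 to 5.61 in the rhoGFP-positive and 2.87 to 3.25 in the rhoGFP-negative fraction, below the array medians. Whether the Slc24a1 signals are above background is not known, and its value is also the median of the list. Against the nestinGFP-positive group Gucy2e was higher by 2.48 and Rd3 by 3.84. Between the nestinGFP-positive and rhoGFP-negative groups Gucy2e differed by -0.09 ± 0.26 (log2, SE), where Rd3 differed by 1.21. The Gucy2e signals were 4.22 to 4.67 in the rhoGFP-negative and 4.39 to 4.59 in the nestinGFP-positive group, below the array medians. Whether they are above background is not known, so that this value cannot be set against that of Rd3. The retinal transporter gene Abca4, also a disc rim protein, differed by 0.05 between the rhoGFP fractions and was higher by 1.79 and 1.85 in the rhoGFP-negative and rhoGFP-positive fractions over the nestinGFP-positive group.

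Of 20 measured genes of the connecting cilium and axoneme, 9 were called higher and 0 lower between the rhoGFP fractions, 8 and 0 against the nestinGFP-positive group and 1 and 0 in the third comparison. Fam161a, a microtubule-associated ciliary gene, was higher by 3.28 and Pcare, which acts on actin at the site of disc formation, by 2.84 in the rhoGFP-positive over the rhoGFP-negative fraction. General intraflagellar transport and motor genes were not called in that comparison, with Ift88 at 0.73, Ift140 at 0.20, Kif3a at -0.47 and Kif17 at 0.25. The single gene called in the third comparison was the kinase gene Mak, at 1.13, and this call was lost without the same 4 single arrays that ended the calls of Cdhr1, Prcd and Rd3.

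Of 4 genes of the interphotoreceptor matrix and of adhesion, 4 were called higher between the rhoGFP fractions, with Crb1, a polarity gene, at 3.62 and the matrix gene Impg1 at 1.52. Averaging its probe sets gave Crb1 a difference of 1.85. Against the nestinGFP-positive group 4 of 4 were called higher, and in the third comparison 1, Egflam, at 1.36, a call lost without rhoGFP-negative replicate 1 or 2 or nestinGFP-positive replicate 2. Of 13 genes of lipid and disc protein trafficking, 8 were called higher between the rhoGFP fractions, 9 against the nestinGFP-positive group and 1, Unc119 at 1.03, in the third, where its call ended without any of the same 4 single arrays as Mak, without the replicate 1 arrays and after cyclic loess. The largest values between the rhoGFP fractions were those of Reep6 at 4.06 and of Aipl1, a chaperone of rod phosphodiesterase, at 2.44. The trafficking GTPase genes Rab8a and Rab11a differed by -0.15 and -0.27 and were not called.

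Of 8 photoreceptor transcription factors, 1 was called higher between the rhoGFP fractions, Nrl at 1.06, a call lost without rhoGFP-positive replicate 2 or 3 or rhoGFP-negative replicate 3, and Crx differed by 0.71 (limma adjusted p = 0.114). Against the nestinGFP-positive group 4 were called higher, Nrl by 2.54 and Crx by 2.07 with the largest values. In the third comparison Nrl and Crx were called, at 1.48 and 1.37, and neither call held without rhoGFP-negative replicate 1 or 2 or without nestinGFP-positive replicate 2 or 3; that of Crx was also lost without the replicate 1 arrays.

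For each gene, the 2 most similar profiles were taken by the root mean square difference of centred log2 values over the 9 arrays. They came from 10507 genes (10508 for Fscn2) with a mean signal at or above the 40th percentile, leaving out clone and model names. The closest profile to Tulp1 was that of Samd11, at 0.0868, followed by Ptp4a3 at 0.129. Prom1 was closest to Zbtb4 and Snrk, at 0.107 and 0.132, and Prcd to Hs3st3b1 and Pcdh15, at 0.134 and 0.207. Rd3 was closest to Fabp12 and Pcare, at 0.151 and 0.181. Cdhr1 was closest to Ppef2 and Pla2g7, at 0.164 and 0.185.

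Rom1 was closest to Hs3st3b1 and to its fellow disc gene Prcd, at 0.240 and 0.257, and not to its partner Prph2. Fscn2 was closest to Pla2g5 and Bcar3, at 0.264 and 0.274, and Rp1 to Ppp2r2b and the rod phosphodiesterase gene Pde6b, at 0.305 and 0.432. Prph2 had the most distant nearest profiles, Ppm1n at 0.593 and Cdhr1 at 0.621. These distances describe 9 arrays that share the 3 groups, and no test was made of them.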

How the data were processed

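RNA of 9 samples, 3 per sorted group, was measured on Affymetrix arrays. Per the submitters' processing notes, the deposited log2 values came from RMA, whose version no source used here states. RMA compresses low signals, which understates folds of dim genes. Of 45101 probe sets, 64 were controls, 34945 had 1 gene symbol in the platform annotation, 932 several and 9160 no gene. For 34754 the symbol was looked up by Entrez ID, whether or not that changed it. Each of 18193 genes was represented by its probe set with the highest mean (9010 genes had several).

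The test was limma's (two-sided, lmFit and eBayes, version 3.58.1, R 4.3.3), fitted to all 9 arrays with 3 group means. A gene was called at a Benjamini-Hochberg adjusted p below 0.05 and a log2 difference of at least 1. Steps were tested on simulated data, and figures drawn with matplotlib 3.10.9. The median SE of a difference was 0.14, and only 3 arrays per group limit the precision.

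Every group has replicates 1 to 3, and no label ties a number to a common pool. Deviations of same-numbered arrays from their group means correlated at 0.62, 0.45 and 0.45 between the rhoGFP fractions, at 0.54, 0.15 and 0.23 between the nestinGFP-positive and rhoGFP-negative groups, and at 0.52, -0.0081 and 0.25 between the rhoGFP-positive and nestinGFP-positive groups. Differently numbered arrays correlated at -0.49 to 0.07 between the rhoGFP fractions. Between the nestinGFP-positive and rhoGFP-negative groups, rhoGFP-negative replicate 2 correlated more with nestinGFP-positive replicate 3, at 0.22, than with replicate 2. The numbers of the rhoGFP fractions were therefore read as a pairing, from the data and not the design. The replicate 1 arrays also correlated at 0.54 and 0.52 across the other comparisons, and they share the high 18S signal. The main fit has no block, so that its SEs and p values leave any pairing out. In every comparison the replicate block is only an alternative fit. With it, the limma adjusted p of Prph2 between the rhoGFP fractions was 0.00269.

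The 9 genes and all lists were chosen with earlier results of these data known. Named genes were the 9 genes, their measured relatives, up to 2 largest called genes of each other list per comparison and the 2 nearest profiles; Slc24a1, Gucy2e, Rab8a, Rab11a, Ift88, Ift140, Kif3a, Kif17, Tspan17 and Cd37 were added after their values were seen, as was Abca4 outside the third comparison. Bipolar, ganglion, horizontal, microglia, endothelial, pigment epithelium and erythrocyte markers were also listed and had 1, 0, 0, 0, 0, 2 and 0 genes called higher and 1, 2, 2, 0, 3, 0 and 0 lower between the rhoGFP fractions. Promoter windows are RefSeq sequences on GRCm38.p6. Alternatives were other normalizations, probe set rules, filters, thresholds and eBayes settings, the replicate block and leaving out arrays.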

Additional observations from a re-analysis of the deposited data

How the results depend on the processing

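All 9 genes kept their calls between the rhoGFP fractions and against the nestinGFP-positive group under every alternative run, except that Prph2 missed an adjusted p below 0.01 between the rhoGFP fractions (0.0101) and that Fscn2 is left out by the filter on dim genes. Without a minimum difference the genes called numbered 4417 and 6508 in these 2 comparisons instead of 1988 and 2838. Between the nestinGFP-positive and rhoGFP-negative groups the 3 calls among the 9 genes became 0 of them in a fit of the 6 arrays compared (28 genes in all instead of 180), 5 with the replicate block (453), 5 without a minimum difference (370) and 0 at an adjusted p below 0.01 (23). When single arrays of those 2 groups were left out, the 3 calls ranged from 0 to 5 and all calls from 19 to 559. The replicate block changed no other call among the 9 genes. The Fscn2 difference of -0.06 ranged from -0.175 to 0.067 with single arrays left out, and was above 0 without rhoGFP-negative replicate 2 or nestinGFP-positive replicate 1 (0.0108). Leaving out the 3 replicate 1 arrays was added after seeing the data. The causes of these changes were not tested, except that fewer arrays enter some fits. Arrays without detection calls limit what can be said of dim signals, and sort purity is unknown here.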
